A study of Rattus norvegicus with 4 samples.

Results

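Pparg, Fabp4, Csf1r, Csf2ra, Csf2rb and Chil3 are genes of the transcription factor and growth factor receptor programme that marks alveolar macrophages. They were selected by name, and a gene was found on the arrays through the RefSeq accession of its probe. Of these 6 members, 5 had a named probe, among 16581 measured genes. Chil3, which encodes a chitinase-like protein secreted by macrophages in mouse, is now listed by RefSeq as Chi3l3. No probe accession matched it, so it was not analysed here.

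The arrays carried RNA of NR8383, a macrophage line that was started from the lung lavage of a normal rat and grows partly attached and partly floating. The 4 samples form 1 group: cells at 20 passages, seeded 48 h before in flasks, that received 6.8 cm2 of the carboxyl-functionalized carbon nanotubes NRCWE042 per cm2 for 4 h. The design also names unexposed cells, which were not analysed here, so no value below is an effect of the nanotubes, and no comparison between conditions was tested. The labels call the 4 samples biological replicates, all of 1 cell line, and a line is a limited model of the mixed cells of a lung. In such RNA, fewer cells that express a gene and less RNA per cell cannot be told apart.

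In the lung, GM-CSF made by the epithelium acts on a receptor built of a binding alpha chain, encoded by Csf2ra, and a signalling beta chain, encoded by Csf2rb and shared with the receptors for IL-3 and IL-5. The signal runs through JAK2 and STAT5 and induces PPARg, a nuclear receptor that pairs with RXR and switches on genes of lipid uptake and storage, Fabp4 and Cd36 among them. Macrophages use this programme to clear surfactant lipid, and loss of GM-CSF signalling leads to surfactant build-up in mouse and human. The receptor tyrosine kinase encoded by Csf1r answers CSF1 and IL-34 and supports the survival of most macrophages.

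A short stretch of promoter is shown for the receptor and Pparg genes because Spi1, the gene of the macrophage transcription factor PU.1, was detected on all 4 arrays, and PU.1 is known to act on the CSF1R and CSF2RA promoters in human. The sequences are from the RefSeq promoter table of build GRCr8, read 5′ to 3′ on the strand of the gene. Capitals mark the purine box GAGGAA, or TTCCTC where the box lies on the opposite strand.
Csf2ra, chr14:118141-118170, minus strand: caacccaaagatGAGGAAgtgggagcaagg
Csf1r distal, chr18:56834138-56834167, plus strand: agattctgcctcTTCCTCtggtgtgtgtgt
Csf1r proximal, chr18:56834272-56834301, plus strand: gacaagaacgtgTTCCTCtgttcccatccc
Pparg upstream promoter, chr4:150096864-150096893, plus strand: ctcgccaggtgtGAGGAAaatggggtcact

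Counted from the listed start site, the box begins at position -41 in Csf2ra, at -229 and -95 in Csf1r and at -182 in the upstream of 2 Pparg promoters. The other Pparg promoter had no match. A match on either strand occurred in 27.6% of 33469 rat promoters of 300 bases, so it is common. Neither the STAT motif TTCNNNGAA, present in 8.87% of promoters on either strand, nor the PPAR direct repeat, a pair of AGGTCA half-sites 1 base apart that was present in 18 promoters, matched in the windows of Pparg, Csf1r or Csf2ra. The promoter table gave no entry for Fabp4, Csf2rb or Chi3l3. These are descriptions of letters in a window and show no binding.

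Levels are given as the log2 of the scanner software's processed signal minus the array's 75th percentile over 45598 sample probes, so that 0 is the signal of a fairly bright probe. That percentile was 128, 131, 98.5 and 49.0 signal units on replicates 1 to 4, so replicate 4 was the dimmest array. A gene was called detected on an array when over 50% of the spots of a probe were marked well above background. The labelled cell type was checked against markers. Of 10 macrophage and monocyte genes, 8 were detected on all 4 arrays, among them Cd68, Tyrobp and Lyz2, and Adgre1 and Ccr2 on none. Of 12 measured alveolar macrophage genes, 10 were detected on all 4 arrays. Both shares are above the 44.4% of all measured genes. Of the alveolar markers, the scavenger receptor gene Marco and the carbonic anhydrase gene Car4 stayed below that mark on every array, and Itgax and Bhlhe41 were not measured. The 4 arrays lay on 1 slide with 1 scan, so no slide or scan batch could be compared.

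The transcription factor, its lipid chaperone target, the GM-CSF receptor alpha chain and the CSF1 receptor gave clear signal, and the GM-CSF receptor beta chain did not. Pparg, Fabp4, Csf1r and Csf2ra were well above background on all 4 arrays, and Csf2rb on none. This is 4 of 5 measured members, beside 44.4% of all measured genes. The probes of Pparg, Fabp4, Csf1r, Csf2ra and Csf2rb are single spots, and no such spot carried an outlier mark or was saturated. Probes differ in affinity, so a level sets a gene against its own array and gives no order between genes.

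**Figure D1:**
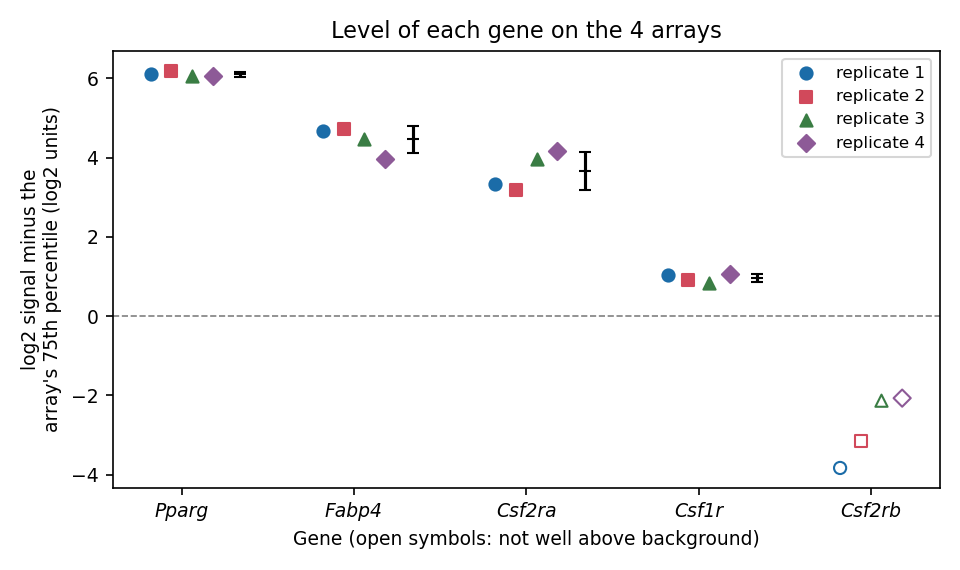
Levels of the 5 measured genes (log2 signal minus the array's 75th percentile, dashed line at 0) on the 4 arrays of nanotube-exposed NR8383 cells; each symbol is 1 replicate, and bars are the mean ± SD of detected genes. The 4 symbols of Pparg lie close to each other, as do those of Csf1r, Csf2ra spans 0.98 log2 units, and the open symbols of Csf2rb are below the software's limit.

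Pparg, the transcription factor of the set, had the smallest SD of the detected members with the 75th percentile scaling. Its processed signal was 8882, 9591, 6555 and 3255 on replicates 1 to 4, in step with the brightness of the arrays. Its level was 6.12, 6.20, 6.06 and 6.05 on replicates 1 to 4, a mean of 6.11 ± 0.07 (SD, n = 4) with a 95% interval of 0.11 each way. The signal was thus between 66.4 and 73.3 times the array's 75th percentile. Of the 7363 detected genes, 94.1% had a larger SD. This closeness rests on the scaling: the SD of Pparg was 0.17 after quantile normalization, 0.29 with normexp background correction and 0.72 when arrays were scaled on the spike-in probes. Csf1r had the smaller SD under each of these 3 settings, and Csf2ra the smallest with spike-in scaling. Its probe is designed on a single transcript accession, and the values do not separate the products of the 2 Pparg promoters.

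Fabp4, which encodes the lipid chaperone also called aP2 and is a classical PPARg target in adipocytes and macrophages, lay at 4.67, 4.71, 4.48 and 3.97 on replicates 1 to 4. Replicates 1 to 3 lay close together, and replicate 4 was the lowest. The processed signals behind these levels were 3256, 3433, 2193 and 769. The mean was 4.46 ± 0.34 (SD, n = 4), with a 95% interval of 0.54 each way, and 33.1% of detected genes had a larger SD. The SD was 0.43 with quantile normalization, 0.60 with normexp and 0.997 with spike-in scaling. Against the median of the other arrays, Fabp4 was at -0.70 on replicate 4, while the spots around it on that array had a median of 0.12, so the neighbourhood did not share the low value. Replicate 4 remained the lowest for Fabp4 with quantile normalization (-0.60 from its mean), normexp (-0.86) and spike-in scaling (-1.35). Spike-in scaling lowers the median of all detected genes on replicate 4 to -0.76. Relative to the median of all detected genes, a measure that the 75th percentile and spike-in scaling share by construction, Fabp4 was at -0.59 there. With normexp it was at -0.73. The low overall signal of replicate 4 moves with this low value of Fabp4, and its part was not tested.

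The receptor genes are described next. Csf2ra, the ligand-binding chain of the GM-CSF receptor, lay at 3.33, 3.18, 3.98 and 4.16 on replicates 1 to 4, a mean of 3.66 ± 0.48 (SD, n = 4). Replicates 3 and 4 were higher than replicates 1 and 2, with a whole range of 0.98 log2 units and a 95% interval of the mean of 0.76 each way. In unscaled form the processed signals were 1285, 1186, 1549 and 877, so that replicate 4, the highest after scaling, was the lowest before it. Of all detected genes, 13.5% had a larger SD, and among the 932 detected genes within 0.5 log2 units of its level the share was 13.8%. The SD of Csf2ra was 0.41 with quantile normalization, 0.28 with normexp and 0.24 with spike-in scaling, where the median over all detected genes was 0.60. The median deviation of neighbouring spots stayed between -0.05 and 0.06 on the 4 arrays, whereas Csf2ra itself ranged between -0.80 and 0.83 against the other arrays.

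The direction for Csf2ra held with quantile normalization (-0.27, -0.42, 0.29 and 0.41 from its own mean on replicates 1 to 4) and with normexp (-0.17, -0.27, 0.35 and 0.10), but with spike-in scaling replicates 1, 2 and 4 turned to 0.14, 0.08 and -0.36. On the spike-in scale the median deviation over the 7363 detected genes was 0.40, 0.50, -0.12 and -0.76 on replicates 1 to 4, against -0.07, -0.07, 0.06 and 0.10 with the 75th percentile. Relative to that median, Csf2ra was at -0.26, -0.42, 0.26 and 0.40 under both of these scalings. These values are equal by construction, since the 2 scalings differ by 1 constant per array. The pattern was common: 44.9% of detected genes were likewise below their own mean on replicates 1 and 2 and above it on replicates 3 and 4.

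**Figure D2:**
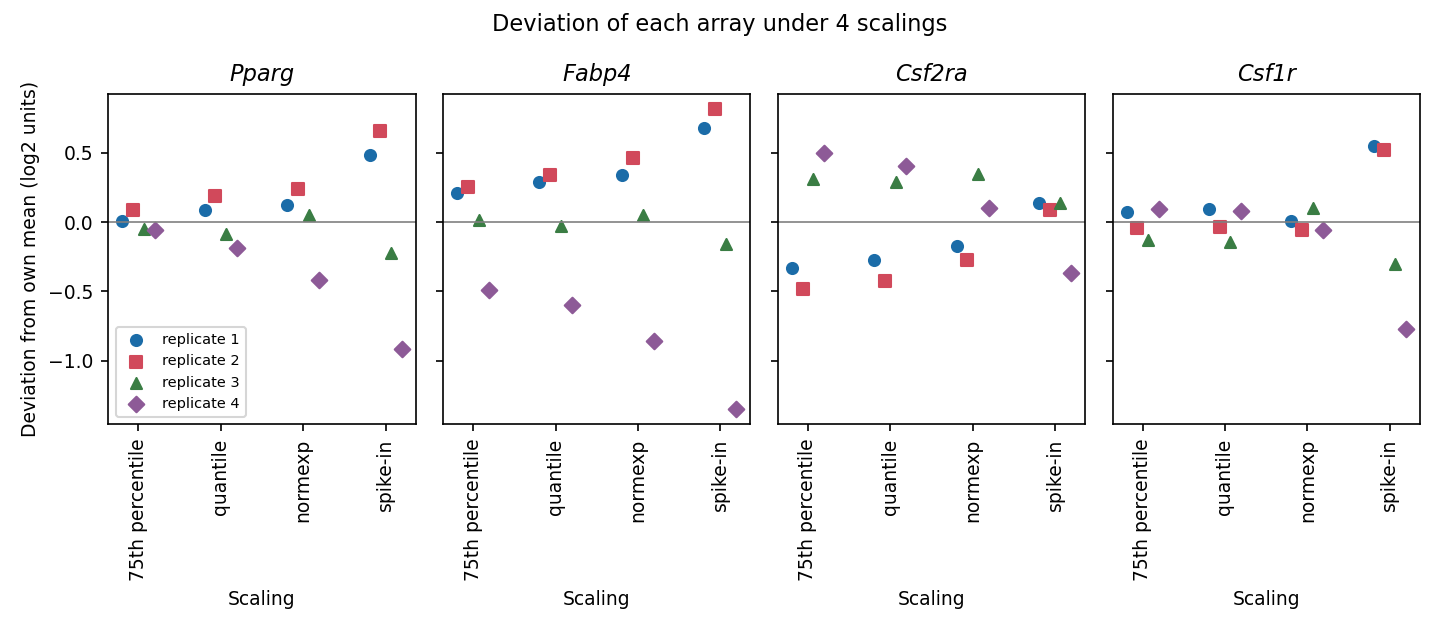
Deviation of each array from the gene's own mean over 4 arrays (log2 units) for the 4 detected members under 4 ways of scaling; each symbol is 1 replicate. Fabp4 is lowest on replicate 4 throughout. For Csf2ra, replicate 4 is lowest with spike-in scaling, while under the other 3 replicates 1 and 2 lie below replicates 3 and 4.

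Csf2rb, the shared signalling chain, gave processed signals of 8.97, 14.6, 22.4 and 11.7 on replicates 1 to 4. The lowest signals that the software marked well above background on those arrays were 21.7, 24.6, 23.2 and 20.8, so replicate 3 came closest to the limit. The software's error for the spot was between 23.8% and 62.4% of the signal. The spot median was between 1.59 and 1.98 times the local background. The software also has a weaker mark, for a signal that is positive and significant, and by it Csf2rb passed on all 4 arrays, which makes 5 of 5 measured members beside 55.4% of all measured genes. The reading concerns this 1 probe, and a transcript could be present below its limit.

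Csf1r, the receptor for CSF1 and IL-34, lay at 1.04, 0.92, 0.83 and 1.05 on replicates 1 to 4. The whole range was 0.22 log2 units, and the software's error for the spot was between 10.2% and 10.8% of the signal. The mean was 0.96 ± 0.10 (SD, n = 4), with a 95% interval of 0.17 each way, and 85.8% of detected genes had a larger SD. Its spot was well above background on every array, with a spot median between 4.18 and 8.08 times the local background. The processed signals were 263, 247, 176 and 102, above the lowest well-above-background signal of each array. With normexp the SD was 0.08 and with spike-in scaling 0.65.

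**Figure D3:**
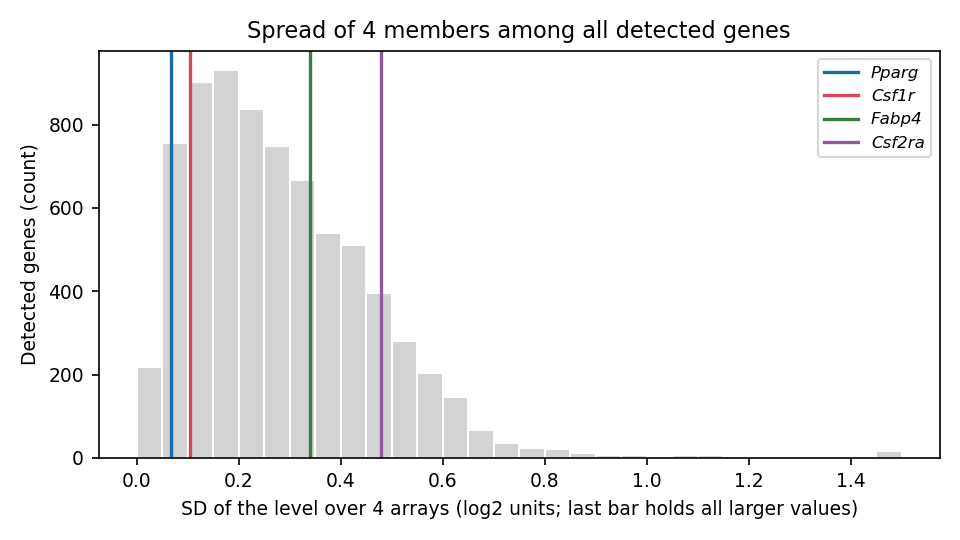
Number of detected genes by the SD of their level over the 4 arrays (log2 units), with vertical lines at the 4 detected members. Pparg (0.07) and Csf1r (0.10) lie left of the median of 0.25, and Fabp4 (0.34) and Csf2ra (0.48) right of it. With spike-in scaling, whose median is 0.60, the sides turn for Pparg (0.72), Csf1r (0.65) and Csf2ra (0.24), and with normexp (median 0.23) for Pparg (0.29).

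Differences between 2 genes of the same array do not depend on a scaling that adds a constant to each array. They show how far 2 members moved apart between arrays. Csf2ra minus Fabp4 was -1.34, -1.53, -0.50 and 0.19 on replicates 1 to 4, a range of 1.72 log2 units or 3.30-fold. This was the widest of the 6 pairs of detected members, and the values for replicates 1 and 2 lay below those for replicates 3 and 4. It spanned 1.03 log2 units without replicate 4, and 1.69 with normexp. Csf1r minus Pparg spanned 0.28 log2 units or 1.21-fold, the narrowest pair with the 75th percentile scaling. Both genes have small SDs there, so the narrow range does not show that they moved together. Csf1r minus Pparg spanned 0.50 with quantile normalization and 0.66 with normexp, where Csf2ra minus Csf1r spanned less, 0.46. Csf2ra minus Csf1r was 2.29, 2.26, 3.14 and 3.11. Here too replicates 1 and 2 lay together below replicates 3 and 4. The size of such a difference mixes probe affinities, and only its variation between arrays can be read.

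**Figure D4:**
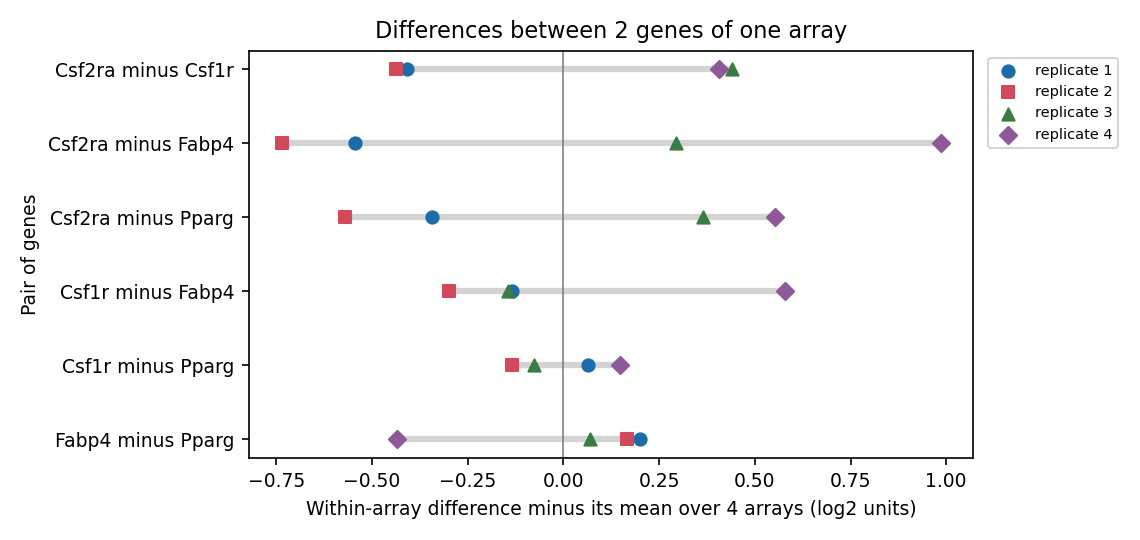
Within-array differences between pairs of detected members, each minus its own mean over the 4 arrays (log2 units); symbols are replicates and grey lines span the range. With this 75th percentile scaling Csf1r minus Pparg varies least (with normexp Csf2ra minus Csf1r does), and Csf2ra minus Fabp4 ranges from -0.74 on replicate 2 to 0.99 on replicate 4.

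The listed genes around these members were detected in 60 of 95 measured cases, beside the 44.4% of all measured genes. The ligands were mostly not found in these cells. Csf2, which encodes GM-CSF, and Csf1 were well above background on no array, and neither were Il3 and Il5. Il34 was the exception, at -0.74, -1.22, -0.59 and -0.31 on replicates 1 to 4, or -0.72 ± 0.38 (SD, n = 4). Its spot lies in a dim area of the array of replicate 3, and that array's value is kept in the mean. The part of the dim area in this value was not tested.

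Of the GM-CSF receptor signalling list, which also holds ligands, 17 of 22 measured genes were detected, or 77.3%, beside 44.4% of all measured genes. The others of the list were the ligand genes Csf2, Il3 and Il5, on no array, and Pik3cd and Socs1, on some arrays. Stat5a, which encodes a transcription factor activated by JAK2, lay at 4.85, 4.90, 5.62 and 5.77 on replicates 1 to 4, or 5.29 ± 0.48 (SD, n = 4). Il3ra, the alpha chain that pairs with the beta chain to bind IL-3, lay at 2.88, 2.66, 3.33 and 3.68. For both genes replicates 1 and 2 were below replicates 3 and 4. The kinase gene Jak2 (0.39 ± 0.15) and Stat5b (1.74 ± 0.32) were detected on all 4 arrays, as were the feedback inhibitor genes Cish (-0.15 ± 0.45) and Socs3. Pim1, a kinase gene induced by STAT5, had the largest SD of the list, at -1.89, -1.92, -1.10 and -0.12. Among transcription factor genes, Spi1 lay at 3.73 ± 0.51, Cebpb at 7.77 ± 0.67 and Bhlhe40 at 1.05 ± 0.38 (SD, n = 4 each).

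Over the 17 detected genes of this list the median deviation was -0.37, -0.28, 0.20 and 0.44 on replicates 1 to 4, and 2, 2, 16 and 14 genes lay above their own mean. Of all detected genes, 38.7%, 41.9%, 61.9% and 59.6% did. With spike-in scaling the list's median deviation became 0.10, 0.29, 0.02 and -0.43. Relative to the median of all detected genes it was -0.30, -0.21, 0.14 and 0.34 under both scalings. That equality is by construction, since the 2 scalings differ by 1 constant per array. The median SD was 0.38 with the 75th percentile and 0.31 with spike-in scaling, beside 0.25 and 0.60 for all detected genes. The order of list and background in spread therefore depends on the scaling.

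Of the genes that work with CSF1R, 11 of 13 measured were detected, with Csf1 and the kinase gene Src well above background on no array. The share is 84.6%, beside 44.4% of all measured genes. Spi1 had the largest SD of this list, whose median SD was 0.19. Of other growth factor receptors, Il3ra and the TGF-beta receptor genes Tgfbr1 and Tgfbr2 were detected on all 4 arrays. These are 3 of 8 measured genes, or 37.5%, beside the 44.4%. Kit, Pdgfra, Pdgfrb and Il5ra were detected on none, and the G-CSF receptor gene Csf3r on 1.

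Among partners of PPARg, 8 of 15 measured genes were detected, or 53.3%, beside 44.4% of all measured genes. Of the RXR genes Rxrb was detected on all 4 arrays, Rxra on 3 and Rxrg on none. The related receptor genes Ppara and Ppard were well above background on no array, so Pparg was the PPAR gene with clear signal on these probes. The liver X receptor genes, whose products sense oxysterols, were both detected, Nr1h3 at 6.22 ± 0.25 and Nr1h2 at 4.38 ± 0.61 (SD, n = 4 each). The corepressor genes Ncor1, Nrip1 and Hdac3 were detected on all 4 arrays, as was the coactivator gene Crebbp. Of other coactivator genes, Ppargc1b was detected on 2 arrays, Ncoa2 on 1 and Ppargc1a on none.

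Genes of lipid handling known as PPARg targets were detected in 13 of 15 cases, or 86.7%, beside 44.4% of all measured genes. Cd36, which encodes a fatty acid and oxidized lipoprotein receptor, lay at 7.65, 7.77, 7.41 and 7.31 on replicates 1 to 4. The values differed by at most 0.46. The lipase gene Lpl lay at 4.37 ± 0.10, the lipid droplet coat gene Plin2 at 5.72 ± 0.08 and the cholesterol exporter gene Abcg1 at 7.39 ± 0.38 (SD, n = 4 each). Slc27a1, a fatty acid transport gene, had the largest SD of the list, 0.42. Exceptions were Pdk4, a regulator of glucose oxidation, on no array and the exporter gene Abca1 on 2. The median deviations of the 13 genes were -0.06, 0.03, 0.06 and 0.00 on replicates 1 to 4, and their median SD was 0.10. With normexp that SD was 0.21, and with spike-in scaling 0.65, beside 0.23 and 0.60 for all detected genes.

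In the fatty acid-binding protein family few members beside Fabp4 gave signal. Of 14 other measured genes, 3 were detected on all 4 arrays: Fabp5 and the retinoid-binding protein genes Crabp2 (-0.49 ± 0.24; SD, n = 4) and Rbp2. The share is 21.4%, beside 44.4% of all measured genes. Fabp5, the epidermal form that macrophages also make, lay at 9.24, 9.32, 9.11 and 9.16 on replicates 1 to 4, or 9.21 ± 0.09 (SD, n = 4). It did not show the low value of Fabp4 on replicate 4. Fabp1 was detected on 1 array, and Fabp2, Fabp3, Fabp6, Fabp7, Fabp9 and Fabp12 on none.

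Of the chitinase family around Chil3, the lysosomal enzyme gene Ctbs and the chitinase-domain gene Chid1 (2.91 ± 0.15; SD, n = 4) were detected. These are 2 of 5 measured genes, or 40%, near the 44.4% of all measured genes. Chia, Chit1 and Chi3l1 were well above background on no array. Genes that degrade or export surfactant lipid were detected in 8 of 9 cases, or 88.9%, beside the same 44.4%. Among them were the lysosomal phospholipase gene Pla2g15, the acid lipase gene Lipa, Npc1 and Npc2.

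**Figure D5:**
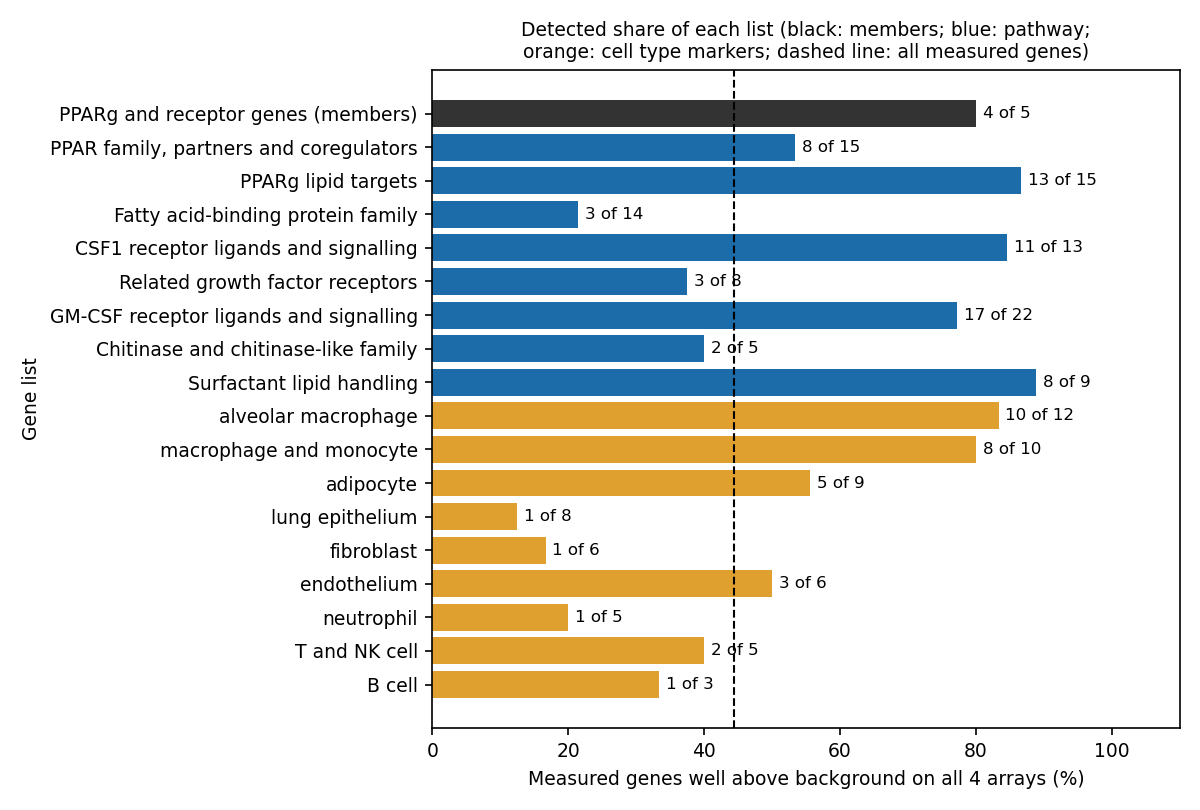
Share of the measured genes of each list that were well above background on all 4 arrays (%), with counts beside the bars; black is the members, blue the pathway lists, orange the cell type markers, and the dashed line the 44.4% of all measured genes. The member, PPAR family, lipid target, surfactant, receptor signalling, macrophage, adipocyte and endothelial lists lie right of the line. The fatty acid-binding protein, related receptor, chitinase, epithelial, fibroblast, neutrophil, T and NK cell and B cell lists lie left of it.

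Pparg and Fabp4 are also genes of fat cells, so adipocyte markers were read beside them. Of 9 measured, 5 were detected on all 4 arrays: Retn, Cfd, Cidec, Gpd1 and Plin4. This is 55.6%, a share above the 44.4% of all measured genes. The defining hormone genes Adipoq and Lep were well above background on no array, and neither were Acvr1c and Ucp1. Plin1 was not measured. The level of the summed signal of the 9 measured genes lay between 9.65 and 10.4 over the arrays. Retn alone lay between 9.51 and 10.2, so the sum mostly reflects 1 probe. Some markers of other cells were detected on all 4 arrays: lung epithelium (1 of 8, Foxj1), fibroblasts (1 of 6, Dcn) and neutrophils (1 of 5, Camp). So were markers of T and NK cells (2 of 5, Cd3d and Nkg7) and B cells (1 of 3, Pax5). These lists are short, and a share rests on few genes. Each of these shares lies below the 44.4% of all measured genes. Endothelial markers were detected in 3 of 6 cases (Pecam1, Cdh5 and Vwf), a share above it, and their part in the results was not tested.

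The genes with the array pattern most like each member were taken as the 3 detected genes with the smallest root mean square difference of their deviations over the 4 arrays. For Csf2ra these were Fdxr (0.01), Pgls (0.01) and Pld3 (0.01), and for Fabp4 they were Gtf2e2 (0.01), Nup37 (0.01) and Pdcd4 (0.02). Pparg was matched most closely by Qrich1, Fkbp5 and Cnot8, and Csf1r by Ap3m2, Uqcrq and Rab33b. With 4 arrays such likeness is common. Of 7362 genes compared, 683 (9.28%) lay within 0.1 log2 units of Csf2ra, 297 (4.03%) of Fabp4, 496 (6.74%) of Csf1r and 1204 (16.4%) of Pparg. That radius is larger than the SD of Pparg, 0.07, so its count also reflects this small SD and is not comparable with the others. Among the members themselves, Csf1r and Pparg differed by 0.11, and by 0.24 with normexp, where Csf1r and Csf2ra were closer at 0.20. Csf2ra and Fabp4 differed by 0.69, and by 0.67 with normexp.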

How the data were processed

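Each deposited file holds the intensity of every spot of a 1-colour Cy3 array, on a linear scale, per the file headers. The software was Agilent Feature Extraction 11.0.1.1, per the submitters' processing notes. The processed signal is corrected for background and detrended within an array by that software, per the file headers, and is not normalized between arrays; the spot median, local background and signal error are on the same scale. From these, the log2 of unmarked spots (no outlier mark) was averaged per probe, and the 75th percentile of the array was subtracted. Of 45598 probes, 21109 were named by accession in a RefSeq table of GRCr8; the headers name an older build, so array coordinates are not given. A gene with several probes took the brightest, and was detected if 1 probe was well above background on all 4 arrays. Chil3 was sought through its synonym.

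No test between conditions was run, since the samples form 1 group. A single array that stands apart was sought with Dixon's criterion. Values are means ± SD over arrays. Alternatives were normexp (offset 50, limma 3.58.1 in R 4.3.3), quantile and spike-in scaling (8 of 10 spike-in probes), the percentile over detected probes, outlier spots kept, the mean of all probes, other detection rules, each array left out, and an area of low signal on replicate 3 left out. That area is 1110 spots whose surroundings (8 spots each way) had a median below -1 log2 units against the other arrays. Values scaled on spike-in probes or on the percentile over detected probes were shifted so that each gene keeps its mean. Scripts ran in Python 3.11.15 with numpy 2.4.6, pandas 2.3.3 and scipy 1.17.1 and were tested on simulated data. The members and lists were chosen with earlier results of these data known. Besides the members, genes named with values are a fixed roster, the gene with the largest SD in each pathway list (1 such gene is not reported here) and the 3 nearest patterns. Precision is limited by having 4 arrays.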

Additional observations from a re-analysis of the deposited data

How the results depend on the processing

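The count of detected members stayed at 4 under each alternative except the software's weaker mark (positive and significant), which gave 5, and that of detected pathway genes lay between 50 (all probes of a gene) and 66 (the weaker mark) of 95. Spike-in scaling and the percentile over detected probes keep each gene's mean by construction. Under the other alternatives mean levels moved by less than the SD over arrays, except with normexp, which gave 5.20 for Pparg, 3.65 for Fabp4, 0.62 for Csf1r and 2.95 for Csf2ra; it was run on the spot median, since the files hold no spot mean, and its added offset lowers contrast by construction. With spike-in scaling, the deviation of Csf2ra turned to 0.14, 0.085 and -0.36 on replicates 1, 2 and 4; that scaling adds 1 constant per array. The range of Csf2ra minus Fabp4 lay between 1.53 and 1.77 log2 units, except 1.03 without replicate 4. Over all 4 arrays, Csf1r minus Pparg was the narrowest pair except with normexp. Without replicate 4, Fabp4 minus Pparg (-1.45, -1.48 and -1.58 on replicates 1 to 3) varied less than Csf1r minus Pparg (-5.08, -5.28 and -5.22). The within-array differences, the deviations and normexp on the spot median were chosen after seeing the data. No paired analysis was possible because the samples form 1 group.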

Other observations

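Among 25 genes and 6 pairs of members, no single array stood apart by Dixon's criterion for 4 samples. The nearest was replicate 4 in Csf1r minus Fabp4, whose gap to the next array was 0.814 of the range.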
